A study of Mus musculus with 8 samples.

Results

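Matricellular proteins are secreted into the extracellular matrix, where they signal to cells through integrins and other receptors more than they bear load. RNA of 9 of their genes was followed on 8 one-colour Agilent microarrays of TEC71, an immortalized line of mouse medullary thymic epithelial cells. The genes were Ccn4 and Ccn5 of the CCN family, Thbs1, Thbs2 and Thbs3 (thrombospondins), Tnc (tenascin C), Postn (periostin), Sparc and Spp1 (osteopontin). All probes whose transcript accession maps to one of them were taken, which gave 16 probes of 56605 on the array. The set was chosen by the kind of protein and with the measured differences of these same arrays in view, so the differences of its genes are given as a description without p-values.

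The control cells (3 arrays) had been transfected with the nickase form of Cas9 (Cas9n) and a single guide RNA. The other cells carried a Gtf2i T1211A knock-in, as clone 1 (3 arrays) and clone 3 (2 arrays). Gtf2i is the gene of TFII-I, which regulates transcription and also acts in signalling. Its probe does not read the point mutation. It differed by -0.46 log2 in clone 1 (adjusted p = 0.0075 by limma) and -0.59 log2 in clone 3 (adjusted p = 0.0042), calls that were lost when the row of the array was fitted (-0.44 and -0.56 log2, adjusted p = 0.0789 and 0.125). Each knock-in group is 1 clone, the labels do not say whether the control was cloned, and arrays of one group may be repeats of one culture, so that spreads and p-values measure these arrays only. The arrays lie in 2 rows of the slide as their titles number them, row 1 with all 3 controls plus clone 1 replicate 1, and row 2 with the rest. The brightest spike-in spots read 2797 on clone 1 replicate 1 and 17164 to 30390 elsewhere. In such bulk RNA, fewer cells that express a gene cannot be told from less RNA per cell.

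The CCN proteins are built from modules that bind growth factors, integrins and heparan sulfate. Thrombospondins bind collagens, growth factors and cell receptors. Those of Thbs1 include Cd36 and Cd47, and Thbs1 can activate latent TGF-beta. In the thymus, matrix glycoproteins of these kinds surround the epithelium and blood vessels through which developing T cells move.

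Sequences upstream of the start site were held by the RefSeq table of build GRCm38.p6 for 6 of the 9 genes, Thbs2, Thbs3, Sparc, Tnc, Postn and Spp1. Those of Thbs2 and Thbs3, which were higher in both clones, and of Tnc, which was lower in both, are printed as the 250 bases before the first annotated start. They lie at chr17:14694263-14694512 on the minus strand for Thbs2, chr3:89214930-89215179 on the plus strand for Thbs3 and chr4:64047016-64047265 on the minus strand for Tnc. Capitals mark matches on either strand to the TATA-like TATAAA and to CANNTG, the E-box pattern, and TGANTCA, an AP-1 pattern, was searched too.
Thbs2: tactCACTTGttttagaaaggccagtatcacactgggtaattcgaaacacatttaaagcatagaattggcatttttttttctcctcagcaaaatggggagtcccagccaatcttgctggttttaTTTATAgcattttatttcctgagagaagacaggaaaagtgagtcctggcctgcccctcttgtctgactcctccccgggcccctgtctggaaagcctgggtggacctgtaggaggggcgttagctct
Thbs3: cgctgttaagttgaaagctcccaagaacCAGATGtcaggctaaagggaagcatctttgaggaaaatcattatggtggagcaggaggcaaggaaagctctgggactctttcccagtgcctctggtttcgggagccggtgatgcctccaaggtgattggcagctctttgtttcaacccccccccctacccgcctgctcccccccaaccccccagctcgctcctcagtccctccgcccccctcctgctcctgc
Tnc: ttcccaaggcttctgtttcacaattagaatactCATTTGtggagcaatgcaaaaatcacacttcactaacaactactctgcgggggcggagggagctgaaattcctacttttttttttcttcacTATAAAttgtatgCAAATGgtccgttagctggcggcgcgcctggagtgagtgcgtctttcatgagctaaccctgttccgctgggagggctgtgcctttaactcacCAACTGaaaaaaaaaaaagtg
Thbs2 held 1 TATAAA and 1 CANNTG match, Thbs3 held 1 CANNTG match, and Tnc held 1 TATAAA and 3 CANNTG matches. The upstream edge of the TATAAA match lay 126 bases before the start site in Thbs2 and in Tnc. The match was on the reverse strand in Thbs2, printed as TTTATA, and on the forward strand in Tnc. From the second annotated start of Tnc that edge lay 205 bases away. None of the 3 windows held TGANTCA. Among all 32841 windows of this length in the table, 12.37% held TATAAA, 66.23% held CANNTG and 6.75% held TGANTCA. Thbs2 and Tnc, which differed in opposite directions, thus both held TATAAA and CANNTG.

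Levels below are log2 processed signals from which each array's own 75th percentile was subtracted, and differences are between means of such levels. A probe is called above background where the scanner software marks it so, and a gene is represented by its brightest probe unless another is named. Where no array of a group was above background, its values were raised to the lowest signal so marked on each array. Folds given as at least follow from this rule. They are not strict limits, since a probe over that signal could still be unmarked. All 9 genes entered the fit across 25353 genes and unnamed transcripts, which took a gene if all arrays of some group were above background. Postn and Ccn5 entered through the controls alone, so that a lower level in the clones was favoured by the filter itself.

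Ccn4, a secreted CCN protein known as a target of Wnt signalling, showed the largest difference of the 9 genes. Its level was 3.51, 3.34 and 3.45 on the control arrays, -0.80, -0.84 and -0.86 on the clone 1 arrays and -0.98 and -1.02 on the clone 3 arrays. The 5 knock-in values lay close together, and none came near the controls. The mean difference was -4.27 log2 in clone 1 (3 arrays, SE 0.10) and -4.43 log2 in clone 3 (2 arrays, SE 0.11), which is 19.3-fold and 21.5-fold lower. A dimmer probe of the same transcript stood at -2.04, -1.82 and -2.69 in the controls and was above background on none of the knock-in arrays. By that probe Ccn4 was at least 6.75-fold lower in clone 1 and at least 6.47-fold lower in clone 3.

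Ccn5, a CCN protein that lacks the C-terminal cystine-knot module of its relatives, was dim throughout. Its single probe read -3.39, -3.06 and -3.21 in the controls, -4.30, -6.36 and -3.84 in clone 1, and -4.82 and -4.53 in clone 3. All knock-in values were below all controls, but the second clone 1 array and the first clone 3 array were not above background. The fitted difference was -1.61 log2 in clone 1 (SE 0.55) and -1.46 log2 in clone 3 (SE 0.61). Without the second clone 1 array it was -0.85 log2 in clone 1, so its size there rests largely on that array.

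Postn, a fasciclin-domain protein that binds integrins and collagen, was measured above background in the controls only. Its brightest probe read -3.86, -4.40 and -4.23 there, and no knock-in array was above background. By the rule above Postn was at least 1.71-fold lower in clone 1 and at least 1.64-fold lower in clone 3. With normexp background correction it differed by only -0.19 log2 in each clone. The other 2 Postn probes were above background on 2 of 3 control arrays and on none of the knock-in arrays.

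**Figure D1:**
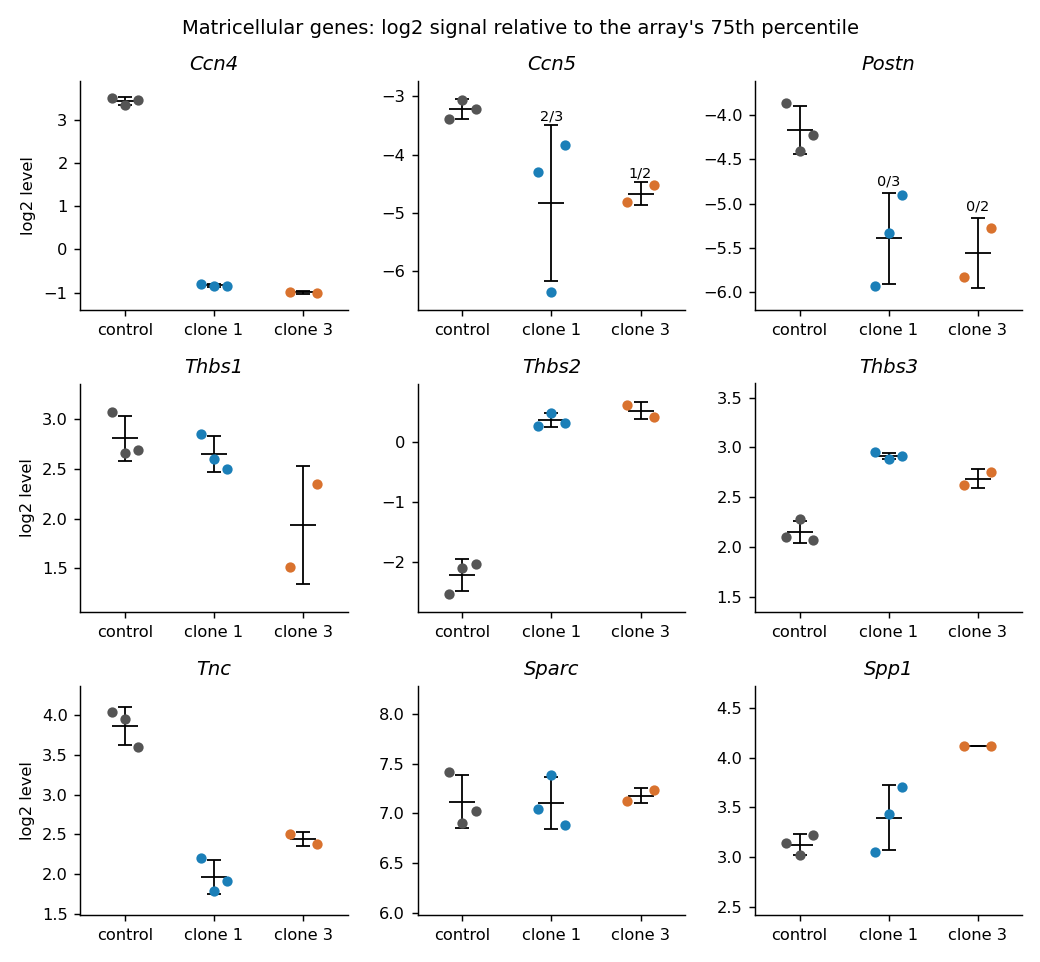
Level of each matricellular gene on every array (log2 signal relative to the array's 75th percentile, brightest probe), by group, with mean and SD as bars, and the number of arrays above background where it is not all of the group. Ccn4, Ccn5, Tnc and Postn lie lower and Thbs2 and Thbs3 higher on all 5 knock-in arrays than on any of the 3 controls, while Sparc overlaps; each panel has its own axis.

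Of the 3 thrombospondin genes, Thbs2 and Thbs3 were higher in both clones and Thbs1 overlapped between the groups. Thbs2, an inhibitor of blood vessel growth, read -2.53, -2.09 and -2.03 in the controls, 0.27, 0.49 and 0.32 in clone 1, and 0.62 and 0.42 in clone 3. Every knock-in array was well over the highest control. The difference was 2.57 log2 in clone 1 (SE 0.15) and 2.73 log2 in clone 3 (SE 0.17), or 5.96-fold and 6.65-fold. With normexp background correction it was 1.78 and 1.77 log2.

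Thbs3, a thrombospondin of the subgroup without the repeats that Thbs1 and Thbs2 use against vessel growth, read 2.10, 2.28 and 2.07 in the controls, 2.95, 2.88 and 2.91 in clone 1, and 2.62 and 2.75 in clone 3. The groups did not overlap, although the gap was small beside that of Thbs2. The difference was 0.76 log2 in clone 1 (SE 0.10) and 0.54 log2 in clone 3 (SE 0.12). Its other probe gave 0.77 and 0.42 log2, again with every knock-in array above every control.

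Thbs1, the best known activator of latent TGF-beta in the family, overlapped between the groups. It read 3.07, 2.66 and 2.69 in the controls, 2.85, 2.60 and 2.50 in clone 1, and 1.52 and 2.35 in clone 3. The first clone 3 array stood apart from all the others. The difference was -0.16 log2 in clone 1 (SE 0.22) and -0.87 log2 in clone 3 (SE 0.25), and the latter was -0.45 log2 without the first clone 3 array and -1.29 log2 without the second. A dimmer Thbs1 probe, above background on all arrays, gave -0.39 log2 in clone 1 and -0.53 log2 in clone 3, with all 5 knock-in arrays below the controls.

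Tnc, a large matrix glycoprotein of developing and remodelling tissue, was lower in both clones. It read 4.03, 3.95 and 3.59 in the controls, 2.21, 1.80 and 1.91 in clone 1, and 2.50 and 2.38 in clone 3. No knock-in array reached the lowest control, and both clone 3 arrays lay above the 3 clone 1 arrays. The difference was -1.89 log2 in clone 1 (SE 0.16) and -1.41 log2 in clone 3 (SE 0.17), or 3.69-fold and 2.66-fold. The other Tnc probe gave -2.04 and -1.69 log2.

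Sparc, a collagen-binding protein that loosens cell adhesion, had levels that overlapped between all groups. They were 7.41, 6.91 and 7.03 in the controls, 7.04, 7.39 and 6.88 in clone 1, and 7.12 and 7.23 in clone 3. The difference was -0.01 log2 in clone 1 (SE 0.17) and 0.06 log2 in clone 3 (SE 0.19), smaller than the SD of 0.27 among the controls. A further Sparc probe gave 0.00 and -0.24 log2.

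Spp1, a phosphorylated ligand of integrins and Cd44, was high in clone 3. Its probe read 3.14, 3.02 and 3.22 in the controls, 3.05, 3.43 and 3.70 in clone 1, and 4.12 on both clone 3 arrays. Clone 1 overlapped the controls through its first array, whereas both clone 3 arrays lay above all others. The difference was 0.27 log2 in clone 1 (SE 0.16) and 0.99 log2 in clone 3 (SE 0.18). Between the clones Spp1 differed by 0.72 log2 (SE 0.18) and Thbs1 by -0.71 log2 (SE 0.25).

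**Figure D2:**
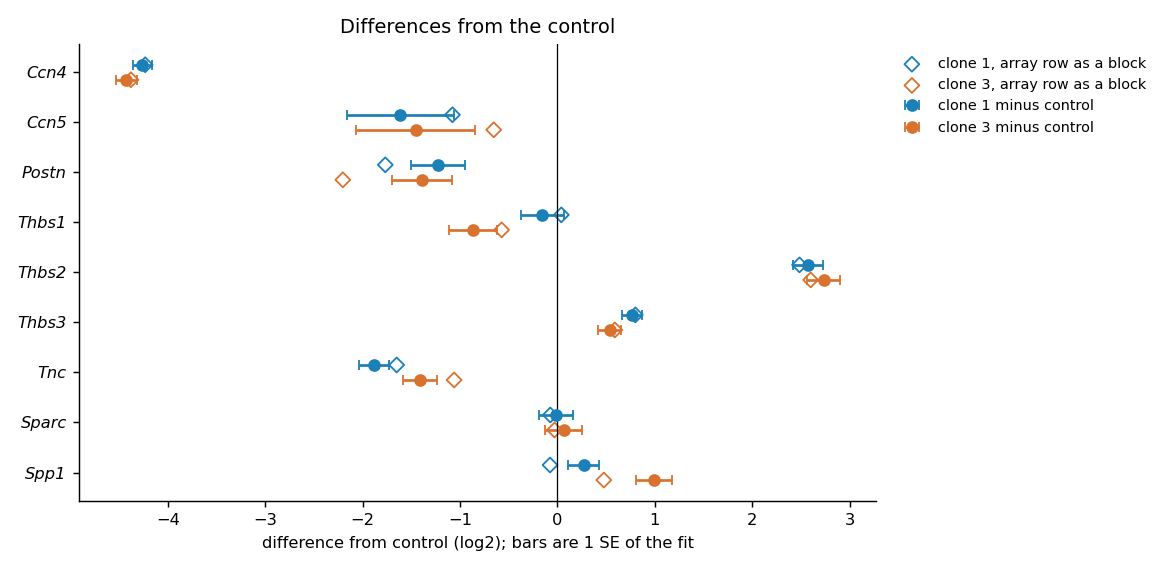
Difference of each clone from the control (log2, x axis) for the 9 genes, with filled points for the fit without a block, bars of 1 SE, and open diamonds for the fit with the array row as a block. Ccn4 and Thbs2 lie far from 0 in both fits, and Ccn5, Thbs1, Tnc and Spp1 move toward 0 with the block in both clones or pass it; Postn values are fitted from knock-in arrays that were not above background.

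Slide row goes largely with the groups, so each difference was also fitted with the row as a block. For clone 1 that value equals the difference of its first array from the controls within row 1. For clone 3 the difference from clone 1 within row 2 is added to it, so the clone 3 value rests on that array too. It is the array whose brightest spike-in spots read 2797. Ccn4 then stood at -4.23 log2 in clone 1 and -4.38 log2 in clone 3, Thbs2 at 2.49 and 2.60 log2, Thbs3 at 0.80 and 0.59 log2, and Tnc at -1.65 and -1.06 log2. Spp1 went to -0.08 and 0.48 log2, Thbs1 to 0.04 and -0.57 log2, and Sparc to -0.07 and -0.03 log2. Ccn5 went to -1.08 and -0.65 log2, and the fitted values of Postn to -1.77 and -2.20 log2. Within row 2, clone 3 minus clone 1 was 0.55 log2 for Spp1, -0.61 log2 for Thbs1 and 0.59 log2 for Tnc.

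In the limma fit, with Benjamini-Hochberg adjustment over all 25353 features and a threshold of 0.05, 5 of the 9 genes passed in clone 1, where 31.1% of all features did, and 7 passed in clone 3, where 30.2% did. In clone 1, 2 of them were higher (background 14.7%) and 3 lower (background 16.5%), and in clone 3, 3 were higher (background 13.3%) and 4 lower (background 17%). In both clones 5 passed with one sign, beside 23.5% of all features. Higher in both clones were 2 of them, Thbs2 and Thbs3, where 11.3% of all features were, and lower in both were 3, Ccn4, Tnc and Postn, where 12.2% were. Thbs1 and Spp1 passed in clone 3 alone, and neither did so with the row as a block. Thbs1 also did not pass with no filter or without the first control, the third control or the first clone 3 array, and Spp1 passed in clone 1 as well without the first clone 1 array. For 6 of the 9 all knock-in arrays lay on one side of the controls, which 38.4% of all features showed. These were 2 above, Thbs2 and Thbs3 (background 17.4%), and 4 below, Ccn4, Ccn5, Tnc and Postn (background 20.9%). Nothing is read from these counts or from the calls of single members, since the set was chosen with these differences in view. Postn and Ccn5 also entered the fit through the controls alone, so their place among the lower genes was favoured by the filter. Between the clones 0 of the 9 passed by limma, where 19 of all features did (0.0749%) and 2734 had an unadjusted p under 0.05. The comparisons of the clones with the control share the 3 control arrays. With the row as a block 3 of the 9 genes passed in both clones, Ccn4, Thbs2 and Postn, of which Postn is fitted from knock-in values under background. That fit passed 4349 of the 25353 features in clone 1 and 2068 in clone 3, and the features it passed in both were not counted. Postn did not pass in either clone with normexp, nor in clone 3 without the first clone 3 array. Thbs3 and Tnc did not pass in clone 3 with the block, and Thbs3 did not pass there without the second clone 3 array.

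**Figure D3:**
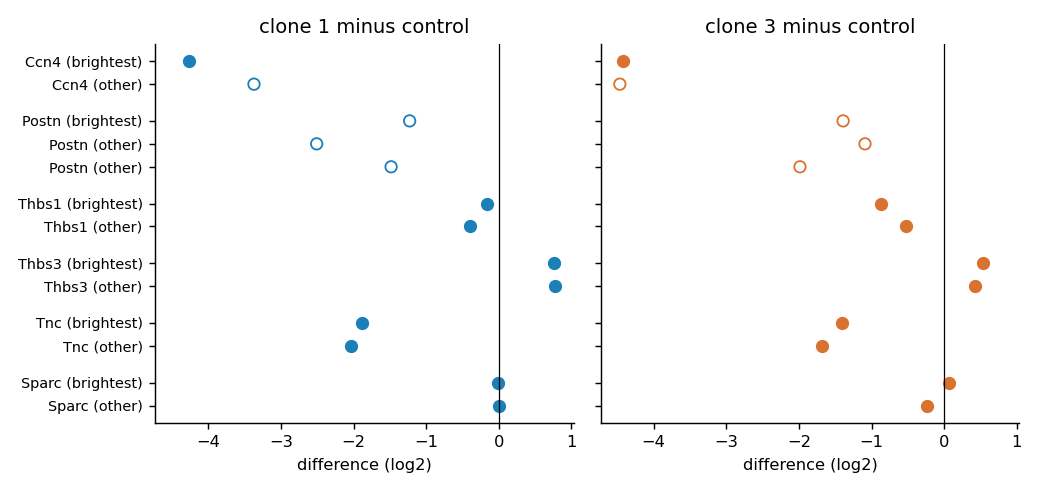
Difference from the control (log2, x axis) given by each probe of the 6 genes with more than 1 probe, clone 1 on the left and clone 3 on the right. Filled points are probes above background in both groups, open points those where a group was not; the probes of a gene lie on one side of 0 except those of Sparc, which lie close to it.

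The genes whose profile over the 8 arrays lay closest to a member were sought among 14717 named genes, by the root mean square difference of log2 levels after the control mean was removed. This was done for the 3 members above background on all arrays with a difference of at least 1 log2. Closest to Ccn4 were Cxcl1, a chemokine gene (0.15 log2), Havcr2, an immune checkpoint receptor gene (0.15 log2), and Tnfrsf26 of the TNF receptor family (0.15 log2). Closest to Thbs2 were Abca1, a cholesterol exporter gene (0.14 log2), Lrrc61 (0.15 log2) and Wnk4, a kinase gene (0.16 log2). Closest to Tnc were the transcript C030016D13Rik (0.19 log2), Id3, an inhibitor of bHLH transcription factors (0.20 log2), and Tfrc, the transferrin receptor gene (0.20 log2). These are likenesses on 8 arrays that share their groups.

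Paired values below give clone 1 first and clone 3 second. Relatives of the 9 genes, their receptors, enzymes that modify them and genes that induce them were then read by lists, 68 genes in all, of which 46 were tested. Comp, Smoc2 and Tgm2 entered the fit through the controls alone, where they were high, so their lower levels in the clones were favoured by the filter and are given without p-values, though Smoc2 and Tgm2 are 2 of the 10 counted as fallen. In both clones 9 of the 46 rose and 10 fell, and 27 did not pass in both, where 11.3% and 12.2% of all features rose and fell. The median difference over the 46 was -0.07 and -0.04 log2, beside -0.05 and -0.04 log2 over all features. With the row as a block, where standard errors were larger, 4 rose and 4 fell in both clones. That fit passed 4349 of all features in clone 1 and 2068 in clone 3, and those it passed in both were not counted. Within row 1, where clone 1 has a single array, the clone 1 calls of Ccn1, Smoc1, Stab1, Itgav, B3glct and Tead1 were lost (adjusted p = 0.0522 to 0.267 by limma).

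Of the 2 CCN relatives tested, Ccn1, an immediate early gene and a target of YAP, fell. Control arrays averaged 4.33 ± 0.07 (SD, n = 3), clone 1 arrays 3.65 ± 0.11 and clone 3 arrays 2.94 ± 0.47. Its difference was -0.68 log2 in clone 1 (adjusted p = 0.0156) and -1.39 log2 in clone 3 (adjusted p = 0.000931) by limma, and fitting the row as a block took both calls away (-0.63 and -1.32 log2, adjusted p = 0.137 and 0.056). The clone 1 call was also lost without the third control array (adjusted p = 0.0545), without the second clone 1 array (adjusted p = 0.0547), with normexp (adjusted p = 0.0596) and with no filter (adjusted p = 0.0559). Ccn2, its close relative, differed by 0.03 and -0.44 log2 and did not pass, though it missed the threshold narrowly in clone 3 (adjusted p = 0.0502 by limma) and passed there under 4 alternatives (adjusted p = 0.0239 to 0.0496). Ccn3 and Ccn6 were not above background on any array.

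Tgfbi, a fasciclin-domain protein like Postn and induced by TGF-beta, fell in both clones, by 2.88 log2 in the first (adjusted p = 1.31e-06 by limma, SE 0.13) and 2.58 log2 in the other (adjusted p = 5.8e-06, SE 0.14). It read 1.90, 2.27 and 1.91 in the controls and between -0.92 and -0.53 on the 5 knock-in arrays. Stab1, a scavenger receptor that takes up Sparc, fell by 0.99 log2 and 1.24 log2, though not past the threshold in clone 3 once the row was fitted (-1.28 log2, adjusted p = 0.0601 by limma). Stab2 of the same list did not pass (-0.09 and 0.23 log2). Fbln1, a fibulin of basement membranes, fell by 2.46 log2 (adjusted p = 3.38e-05) and 2.66 log2 (adjusted p = 5.23e-05), or 1.78 and 1.81 log2 with normexp, and the relative Fbln2 did not pass (-0.34 and -0.38 log2).

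Among the 7 SPARC relatives 4 were tested. Of these 1 rose (background 11.3%) and 2 fell (background 12.2%) in both clones, Smoc2 counted among the latter. Fstl1, a secreted follistatin-like glycoprotein, rose by 1.87 log2 (SE 0.12, adjusted p = 1.11e-05 by limma) and 1.90 log2 (SE 0.13, adjusted p = 2.43e-05). Smoc1, a calcium-binding matrix protein, fell by 0.79 and 0.80 log2, a call lost in clone 3 once the row was fitted (-0.58 log2, adjusted p = 0.17). Its relative Smoc2 averaged -3.46 ± 0.19 on the control arrays (SD, n = 3). By its brightest probe it differed by -1.36 log2 in clone 1, where 1 array was above background, and was at least 2.66-fold lower in clone 3. The mean of its probes gave smaller differences, -0.74 and -1.14 log2, and normexp -0.33 and -0.37 log2. The testican gene Spock1 did not pass (-0.19 and 0.19 log2).

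Of the thrombospondin relatives Thbs4 was above background on no array. Comp, a cartilage matrix protein, was so in the controls alone, and was at least 1.59-fold lower in clone 1 and at least 1.53-fold lower in clone 3. With normexp it differed by only -0.15 and -0.22 log2. The tenascin Tnxb and the SIBLING gene Mepe, the only members of their lists that were tested, did not pass in either clone.

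**Figure D4:**
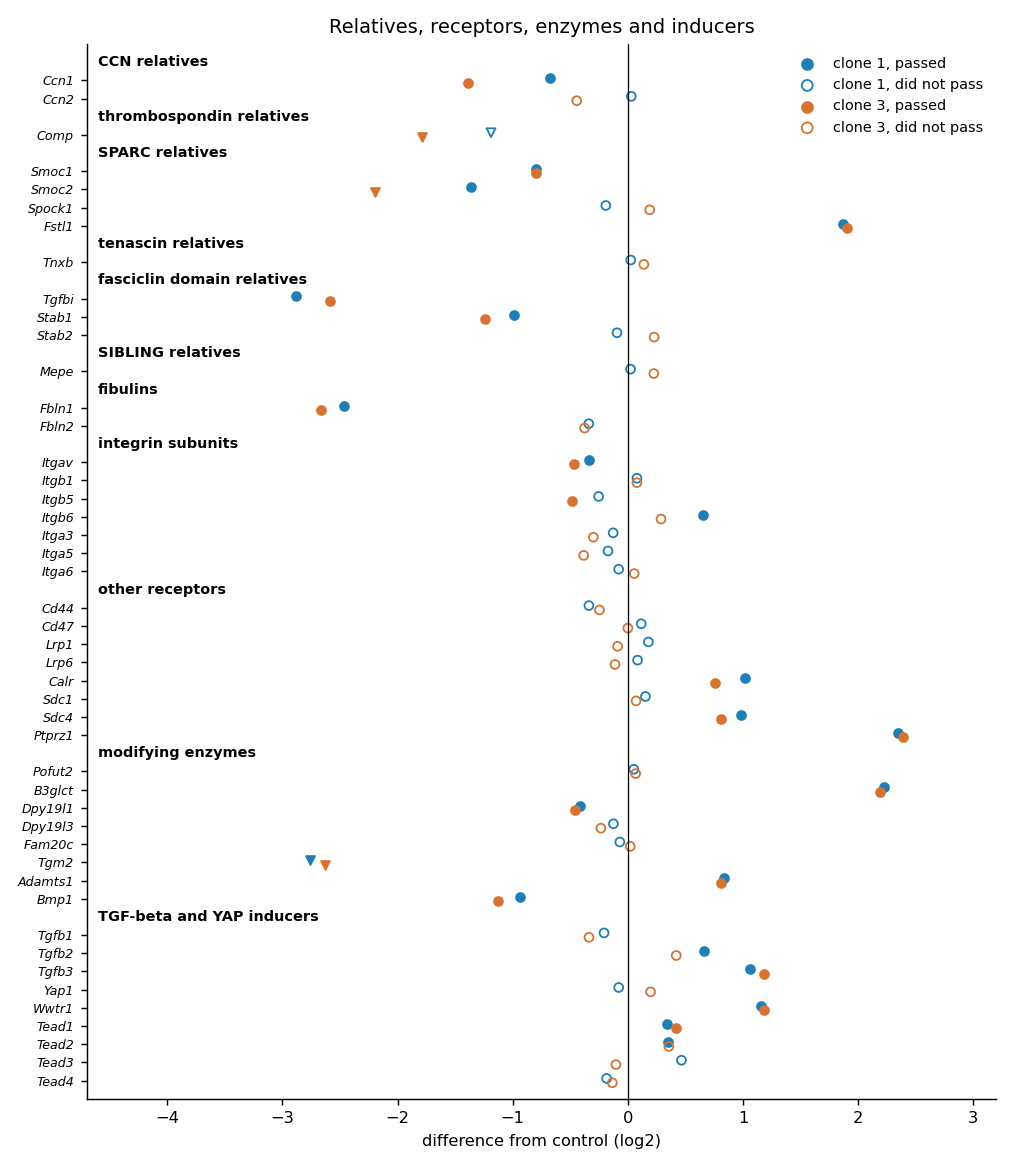
Difference from the control (log2, x axis) of the 46 tested relatives, receptors, enzymes and inducers in clone 1 (blue) and clone 3 (orange), filled where limma passed; triangles are fitted from a clone with no array above background and are not read as changes. Tgfbi, Fbln1 and Tgm2 lie farthest to the left and Ptprz1, B3glct and Fstl1 farthest to the right in both clones.

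Of 7 integrin subunits tested 1 fell in both clones (background 12.2%). This was Itgav, the partner of several subunits in receptors for Spp1, Postn and Tnc. It fell by 0.34 log2 (adjusted p = 0.0431 by limma) and 0.47 log2 (adjusted p = 0.0195). Both calls were lost once the row was fitted, at larger differences and SEs (-0.46 and -0.65 log2, adjusted p = 0.0786 and 0.0984), with median scaling (adjusted p = 0.131 and 0.0885) and with no filter (adjusted p = 0.144 and 0.0785), and the clone 1 call also with normexp (adjusted p = 0.0737). The clone 1 call was lost without any one control or clone 1 array (adjusted p = 0.0646 to 0.126), and the clone 3 call without the first control (adjusted p = 0.0547) or the second clone 3 array (adjusted p = 0.13). Itgb1, the common beta subunit, differed by 0.08 log2 in each clone (SE 0.10 and 0.11). Cd44 (-0.34 and -0.25 log2) and Cd47 (0.12 and 0.00 log2) did not pass, and Cd36 was above background on no array.

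Of 8 other receptors tested 3 rose in both clones (background 11.3%). Ptprz1, a receptor phosphatase that binds tenascins, averaged -0.96 ± 0.15 on the control arrays (SD, n = 3) and rose by 2.35 log2 (SE 0.12, adjusted p = 2.9e-06 by limma) and 2.39 log2 (SE 0.13, adjusted p = 6.18e-06). Calr, a chaperone that also serves as a surface partner of thrombospondin with Lrp1, rose by 1.02 and 0.75 log2, and the heparan sulfate proteoglycan gene Sdc4 by 0.98 and 0.81 log2. In clone 3 neither Calr nor Sdc4 passed once the row was fitted (0.83 and 0.88 log2, adjusted p = 0.0786 and 0.0667).

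Enzymes that act on matricellular proteins changed in both directions. In both clones 2 of 8 tested were higher (background 11.3%) and 3 lower (background 12.2%), with Tgm2 counted among the latter. B3glct, which extends the fucose on thrombospondin repeats, rose by 2.22 log2 (SE 0.27, adjusted p = 0.000414 by limma) and 2.19 log2 (SE 0.30, adjusted p = 0.000983). Pofut2, which adds that fucose, did not pass (0.05 and 0.07 log2). Adamts1, a protease that cleaves thrombospondins, rose by 0.84 and 0.81 log2. Bmp1, a protease of matrix proteins, fell by 0.93 log2 (adjusted p = 0.000275) and 1.13 log2 (adjusted p = 0.000216). Tgm2, a transglutaminase that crosslinks matrix proteins, was above background on the control arrays only and was at least 2.71-fold lower in clone 1 and at least 2.59-fold lower in clone 3. Once the row was fitted, B3glct and Adamts1 did not pass in clone 3 (2.05 and 0.95 log2, adjusted p = 0.0597 and 0.0776). With normexp the differences of B3glct were 1.14 and 1.13 log2.

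TGF-beta ligands and YAP, TAZ and their TEAD partners induce several matricellular genes. Of 9 genes for them 3 rose in both clones and none fell, where 11.3% and 12.2% of all features rose and fell. Nothing is read from a count in so short a list. Wwtr1, which encodes TAZ, rose by 1.16 log2 (SE 0.11, adjusted p = 9.49e-05 by limma) and 1.18 log2 (SE 0.12, adjusted p = 0.000197). Tgfb3, a TGF-beta ligand, rose by 1.06 and 1.18 log2. Tead1 rose by 0.34 and 0.42 log2, calls that were lost once the row was fitted (0.33 and 0.40 log2, adjusted p = 0.227 and 0.325 by limma) and with no filter (adjusted p = 0.143 and 0.112). In clone 1 the call was lost also with median scaling (adjusted p = 0.0605) and without any one control or clone 1 array (adjusted p = 0.0641 to 0.128). In clone 3 it was lost without the first or second control or the second clone 3 array (adjusted p = 0.0622 to 0.182). Yap1 (-0.08 and 0.20 log2) and Tgfb1 (-0.21 and -0.34 log2) did not pass.

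Markers of the cells were read beside these genes. All 9 markers of thymic epithelium were above background on all 8 arrays, with a summed linear level of 393 to 503 in the controls, 434 to 482 in clone 1 and 452 to 501 in clone 3. Keratin genes made up almost all of that sum, and the transcription factor gene Foxn1 was dim (-3.35 log2 in the controls). Within that sum the keratin gene Krt17 rose by 2.18 and 2.23 log2, while Krt5 fell by 1.32 and 1.13 log2 and the transcription factor gene Trp63 by 0.65 and 0.99 log2. Both Trp63 calls were lost once the row was fitted (-0.71 and -1.08 log2, adjusted p = 0.0655 and 0.0673 by limma). The adhesion gene Epcam fell too, to a level 2.14-fold and 2.01-fold lower. The other 5 did not pass. Of 5 medullary markers Ccl21a and Fezf2 were above background on no array and Aire on 3 of 8. Cd80 and Cldn4 were above background on all 8, and Cd80 fell by 2.31 and 2.86 log2 where Cldn4 rose by 1.52 and 1.17 log2. The summed medullary level was 4.47 to 5.26 in the controls, 9.73 to 12.2 in clone 1 and 8.16 to 8.37 in clone 3. Cldn4 (1.84 log2 in the controls) was the larger part of it, so the sum follows that gene and is not read as more medullary cells. Of 4 cortical markers Psmb11 was above background on no array, and Ly75, Prss16 and Ctsl on all 8. The summed cortical level was 90 to 116 in the controls, 93.4 to 116 in clone 1 and 99.2 to 99.7 in clone 3. Ctsl (6.64 log2 in the controls) was the larger part of it. Prss16 rose by 0.71 and 0.57 log2, calls lost once the row was fitted (adjusted p = 0.0633 and 0.262 by limma). Ly75 and Ctsl did not pass. Of 9 fibroblast markers, cells in which Postn and Tnc are also made, 5 were above background on no array (Pdgfrb, Dcn, Lum, Fap and Thy1), and the summed level was 0.969 to 1.22 in the controls, 0.475 to 0.631 in clone 1 and 0.49 to 0.564 in clone 3. Of the 2 that were tested, Pdgfra, the larger part of that sum in the controls, fell by 1.30 and 1.83 log2, and Col1a2 did not pass (-0.13 and 0.14 log2). The part of these markers in the differences of the 9 genes was not tested. Of 4 endothelial markers 3 (Cdh5, Kdr and Tek) were above background on no array. The summed level of 5 leukocyte markers was 5.86 to 9.05 in the controls, 6.07 to 9.25 in clone 1 and 7.72 to 8.45 in clone 3. Itgam (2.42 log2 in the controls) and Cd3e (0.37 log2) held most of it. Ptprc was above background on 1 control array alone and Lyz2 on no array. The sum of 3 muscle markers was 31.6 to 39.4, 37.1 to 46.1 and 43.4 to 55.1. It was almost all Acta2 (5.15 log2 in the controls), while Myh11 was dim (-4.64 log2) and Des was above background on no array. Neither sum is read as a presence of such cells.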

How the data were processed

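The deposited values are processed signals, linear fluorescence intensities corrected for background; the submitters' processing notes list Agilent Feature Extraction 11.5.11 and the authors also deposited raw spot and local background intensities. No scaling between arrays is recorded. Outlier spots were dropped, signals put on the log2 scale, spots of a probe were averaged, and the 75th percentile over probes (268.4 to 376.6) was subtracted. Probes well above background made up 55.31% to 59.31% of each array, and no probe was saturated. Probes were named through transcript accessions and RefSeq names of GRCm38.p6, which named 32994 of 56605. File headers name an older build.

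The 3 groups were fitted together with limma 3.58.1 (R 4.3.3) by lmFit and eBayes, with two-sided p-values under Benjamini-Hochberg adjustment. The procedure was also run on simulated independent noise without a row effect, which cannot speak to the overlap of row and group. Figures used matplotlib. For a group not above background on any array, each value was raised to the lowest signal above background on that array where it lay under it. The fold given as at least follows from this and is not a strict limit. The members and lists were chosen with earlier results of these data known. Replicates are numbered in accession order. Text names all members, up to 4 genes per list that passed in both clones, other genes of lists with 5 or fewer tested, the nearest profiles, and markers not above background; other genes and markers were chosen after their values were seen. Alternatives were other scaling, normexp, filters, the probe mean, the row as a block, row 1 alone and each array left out.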

Additional observations from a re-analysis of the deposited data

How the results depend on the processing

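Ccn4, Thbs2, Thbs3 and Tnc kept their direction in both clones under every alternative run, and so did Ccn5 and Postn wherever they were tested. The filter on all 8 arrays dropped both. Normexp with an offset of 50, which compresses dim signals, brought Ccn5 to -0.38 and -0.36 log2, Postn to -0.19 log2 in each clone and Thbs2 to 1.78 and 1.77 log2. Spp1 and Thbs1 in clone 1 changed sign with the row as a block, and Sparc under several alternatives, all without a call.

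The number of members past the threshold in both clones went from 5 to 3 with the row as a block, and ranged from 4 to 6 with an array left out. For the lists of relatives and partners, 9 risen and 10 fallen became 4 and 4 with that block, and 8 to 9 and 7 to 10 with an array left out. The share of all features that passed in both clones was not counted for these fits, so nothing is read from these counts. Over all features 4349 passed in clone 1 and 2068 in clone 3 with the block, 3119 in clone 1 within row 1, 5103 in clone 3 without a filter, and 6193 to 7778 in clone 1 and 5059 to 7444 in clone 3 with an array left out. Between the clones 46 passed with normexp, 7 without a filter and 9 to 172 with an array left out, lowest without the second clone 1 array and highest without the first clone 3 array. The cause of these shifts was not tested. No paired analysis was possible because the labels number no replicates. Only 2 to 3 arrays a group limit every value, and on the knock-in arrays Postn, the dimmer Ccn4 probe and, on 2 of 5, Ccn5 were not above background.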

Other observations

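Between the clones limma passed 19 features, 15 of them with a symbol, and 2734 had an unadjusted p under 0.05. The following 3 genes were picked from the 15 after their values were seen. Col5a2, a fibrillar collagen gene, was 2.09 log2 higher in clone 3 than in clone 1 (SE 0.22, adjusted p = 0.0166 by limma). Nid1, which links laminin to collagen in basement membranes, differed by -2.46 log2 (SE 0.26, adjusted p = 0.0174), and Loxl1, which crosslinks elastin, differed by -1.89 log2 (SE 0.14, adjusted p = 0.00309).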
